A study of Mus musculus with 2 samples.

Results

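The 10 genes described here encode regulators of G protein signalling (RGS): Rgs2, Rgs4, Rgs6, Rgs7, Rgs8, Rgs9, Rgs10, Rgs12, Rgs14 and Rgs20. They were taken by symbol from the 31040 genes of a single-nucleus count matrix of mouse prefrontal cortex, and each symbol matched 1 row. They are a part of the RGS family, and 11 further Rgs genes are summarised near the end. The study compared wild-type C57BL/6 males aged 2 months that received methamphetamine (METH) with wild-type males of the same strain and age that received saline (Control). Both agents were given into the peritoneum for 14 days, METH at 5 mg/kg, and the prefrontal cortices of 3 mice went into each group, so each library is a pool of animals. Barcodes of the matrix carry 1 of 2 library numbers, and no label ties a number to METH or to Control. METH was therefore not compared with Control. The libraries are called library 1 and library 2, and the levels below describe how the genes were distributed over cell types.

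An RGS protein binds an active G alpha subunit and speeds its hydrolysis of GTP, which ends the signal of a G protein-coupled receptor. The family is divided by sequence into R4 (Rgs2, Rgs4, Rgs8), R7 (Rgs6, Rgs7, Rgs9), R12 (Rgs10, Rgs12, Rgs14) and RZ (Rgs20). R7 proteins are stable only as complexes with the beta subunit encoded by Gnb5, and act mainly on Gi and Go proteins, to which dopamine D2 receptors couple. In the striatum, a region that receives dense dopamine input, Rgs9 is best known as a brake on D2 receptor and opioid receptor signals.

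After filtering, 18002 nuclei remained, 8003 in library 1 and 9999 in library 2, with a median of 3047 UMIs (unique molecular identifiers, counted molecules) per nucleus in library 1 and 2924 in library 2. Nuclei were clustered without any Rgs gene or G protein gene of the lists, and clusters were named from marker genes. The 8 broad classes of at least 100 nuclei were excitatory neurons (7776), oligodendrocytes (3052), inhibitory neurons (2437), striatal projection neurons (SPNs, 1278), microglia (884), oligodendrocyte precursors (353), astrocytes (305) and neuroblasts or dividing progenitors (179). SPNs belong to the striatum, not to the labelled tissue, and made up 4.34% of nuclei in library 1 and 9.31% in library 2. A level (CPM) is the UMIs of a gene per 1000000 UMIs of a class, followed in brackets by its exact Poisson 95% interval. A class is called the clear highest where its ratio to the next one has an exact 95% interval above 1. The intervals hold counting error alone and not the spread between mice, and no p-value is given, because the nuclei of a pool do not replicate it. Levels are compared between classes and not between genes, since long genes can gather more reads. Some RNA in every droplet is free RNA from other cells: Slc17a7, the vesicular glutamate transporter of excitatory neurons, was at 429 CPM in microglia and 358 CPM in oligodendrocytes, which should lack it, and at 371 CPM in excitatory neurons. Its part in the levels below was not tested.

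By the GENCODE annotation of GRCm38, Rgs2 (1:143999338-144004161), Rgs4 (1:169741477-169747642), Rgs7 (1:175059087-175492500) and Rgs20 (1:4909576-5070285) lie on the minus strand of chromosome 1 and Rgs8 (1:153653025-153700323) on its plus strand. Rgs9 (11:109225355-109298129) and Rgs10 (7:128373621-128418758) lie on the minus strand, and Rgs6 (12:82588292-83162056), Rgs12 (5:34949445-35039644) and Rgs14 (13:55369732-55384687) on the plus strand. The genes span from 4.8 kb for Rgs2 to 573.8 kb for Rgs6. Their UMIs in the filtered nuclei ran from 876 for Rgs12 to 27296 for Rgs7.

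RefSeq upstream sequences were at hand for 8 of the 10 genes. Those of Rgs7 and Rgs9 are shown because these R7 genes contrast in the results below: Rgs9 was 10.9 times higher in SPNs than in the next class, and Rgs7 was at 232 to 835 CPM in 12 of 13 neuronal subclasses. Both are the 250 bases before the RefSeq start site (GRCm38.p6), read 5′ to 3′ on the minus strand, with each CG in capitals.
Rgs7, chr1:175492546-175492795: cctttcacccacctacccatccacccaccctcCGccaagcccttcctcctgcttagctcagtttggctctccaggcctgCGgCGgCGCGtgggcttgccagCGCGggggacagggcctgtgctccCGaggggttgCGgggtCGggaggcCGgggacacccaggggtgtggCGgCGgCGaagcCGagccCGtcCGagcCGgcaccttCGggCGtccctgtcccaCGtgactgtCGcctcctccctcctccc
Rgs9, chr11:109298182-109298431: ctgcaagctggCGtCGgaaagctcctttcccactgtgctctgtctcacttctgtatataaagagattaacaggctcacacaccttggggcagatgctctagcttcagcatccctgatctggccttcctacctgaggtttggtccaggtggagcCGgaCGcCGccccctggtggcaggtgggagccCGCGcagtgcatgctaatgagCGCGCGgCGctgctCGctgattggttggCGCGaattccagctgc
The dinucleotide CG, which reads the same on both strands, occurred 22 times upstream of Rgs7 and 14 times upstream of Rgs9. Among 32851 such windows of RefSeq genes, 92.1% held at least 1 CG, the median was 6, 14.8% held at least as many as Rgs7 and 29.4% at least as many as Rgs9. GC content was 72.4% upstream of Rgs7 and 59.6% upstream of Rgs9.

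Over the broad classes, 7 of 10 RGS genes had a clear highest class, against 28.2% of the 15740 genes tested. Among the 8190 genes with at least 1000 UMIs the share was 33.6%. The highest class was at least 2 times the next for 4 members, against 20.9% of genes and 11.9% of those with at least 1000 UMIs. It was the same class in both libraries for 9 of 10 members, against 48.1% of genes, and both clear and the same for 7, against 26% of genes. The highest class was microglia for Rgs2, Rgs4 and Rgs10, SPNs for Rgs8, Rgs9 and Rgs14, astrocytes for Rgs7 and Rgs20, excitatory neurons for Rgs6, and neuroblasts or dividing progenitors for Rgs12. No gene of the 10 was highest in oligodendrocytes, inhibitory neurons or oligodendrocyte precursors.

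**Figure D1:**
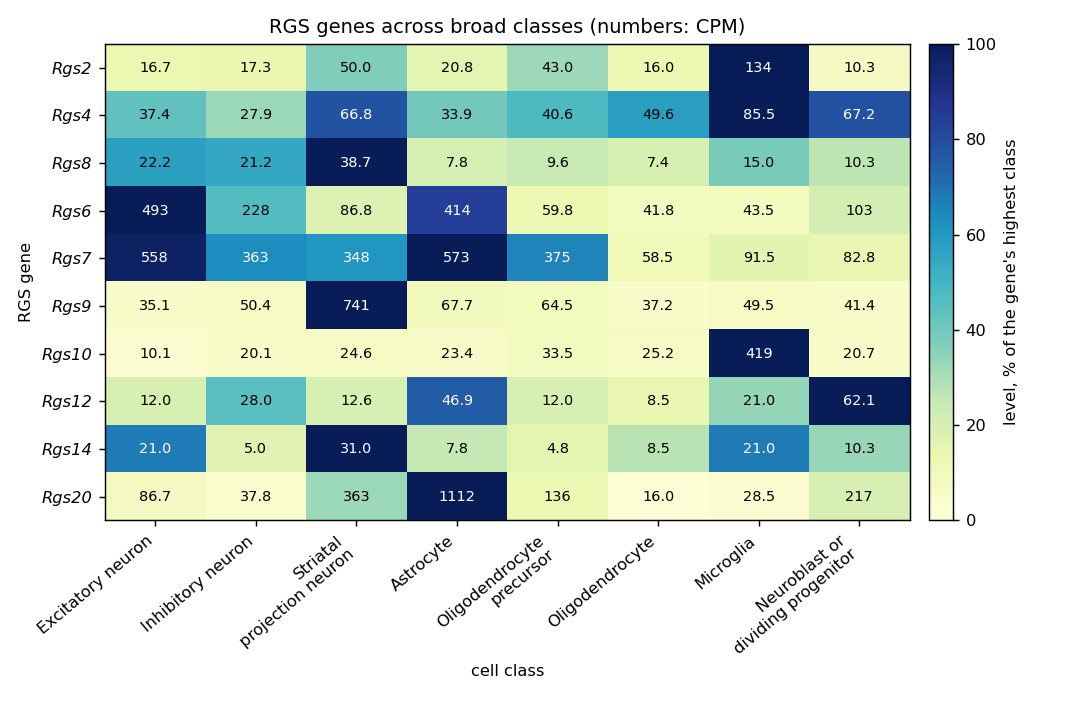
Levels of the 10 RGS genes (rows, grouped R4, R7, R12 and RZ from the top) in 8 broad classes (columns). Numbers are CPM over both libraries, and colour is the level as a percentage of the gene's own highest class. Rgs9 stands out in striatal projection neurons at 741 CPM, Rgs10 in microglia at 419 CPM and Rgs20 in astrocytes at 1112 CPM, while Rgs4 lies between 27.9 and 85.5 CPM in all classes.

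Among the R7 genes, Rgs9 marked SPNs. It was at 741 CPM there (714 to 769), with 751 CPM in library 1 and 737 CPM in library 2. The next class, astrocytes, had 67.7 CPM (44.2 to 99.2), a ratio of 10.9 (7.45 to 16.8). The remaining classes ran from 64.5 CPM in oligodendrocyte precursors through 50.4 CPM in inhibitory neurons to 35.1 CPM in excitatory neurons, and no neighbours in that order below SPNs differed beyond counting error. After each nucleus was thinned to 1000 UMIs, 52.2% of SPNs (49.4 to 54.97; 81.8% unthinned) and 3.48% of oligodendrocytes (2.29 to 5.06; 3.28% unthinned) had an Rgs9 UMI. The median depth was 2777 UMIs in SPNs and 810.5 in oligodendrocytes.

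D1 and D2 SPNs, which carry the dopamine receptors Drd1 and Drd2 and form the direct and indirect pathways of the striatum, did not differ in Rgs9 beyond counting error. D1 SPNs were at 731 CPM (696 to 768) and D2 SPNs at 740 CPM (691 to 793), with a ratio of 0.99 (0.91 to 1.08). In library 1 the D1 SPN level was 773 CPM and the D2 SPN level 698 CPM, and in library 2 they were 718 and 755 CPM, so the order differed between libraries. Next came Sst interneurons, which make the peptide somatostatin, with 85.8 CPM (74.6 to 98.2), or 73.5 CPM in library 1 and 98.1 CPM in library 2. They exceeded layer 6 corticothalamic (L6 CT) neurons, at 62.3 CPM, by 1.38 times (1.15 to 1.65). All other subclasses were between 18.7 CPM in L6b neurons and 45.4 CPM in claustrum neurons. An unnamed cluster of SPNs led by Alk and Adarb2, picked out after its values were seen, had 791 CPM.

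Rgs6, an R7 gene known in the heart and brain for turning off Gi signals, was highest in excitatory neurons. They had 493 CPM (486 to 500), with 483 CPM in library 1 against 502 CPM in library 2, and astrocytes followed at 414 CPM (352 to 484), a ratio of 1.19 (1.02 to 1.40). The ratio was 1.13 (0.76 to 1.76) in library 1 alone, where the call was not clear, 1.004 (0.89 to 1.13) with doublets kept and 1.149 (0.98 to 1.35) at 2 times the cluster resolution. Inhibitory neurons had 228 CPM and neuroblasts or dividing progenitors 103 CPM. The other classes lay between 86.8 CPM in SPNs and 41.8 CPM in oligodendrocytes, and none of these neighbours differed.

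The broad level of Rgs6 hid a 70.8-fold range among neuronal subclasses. Layer 5/6 near-projecting (L5/6 NP) neurons had 1169 CPM (1083 to 1260), with 1076 CPM in library 1 and 1245 CPM in library 2. Layer 2/3 intratelencephalic (L2/3 IT) neurons were next at 1060 CPM (1037 to 1083), and both stood far above L6 CT neurons at 466 CPM. The ratio of L5/6 NP to L2/3 IT was 1.10 (1.02 to 1.19), and in library 1 alone it was 1.02 (0.90 to 1.15), so the order of this pair was not clear there. Layer 4/5 IT neurons, with 288 CPM, and layer 5 extratelencephalic (L5 ET) neurons, with 274 CPM, did not differ from each other, and Vip interneurons at 271 CPM did not differ from L5 ET neurons. At the low end were claustrum neurons with 42.2 CPM, D2 SPNs with 40.6 CPM and Pvalb interneurons with 16.5 CPM (12.0 to 22.2).

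Within inhibitory neurons Rgs6 separated Sst from Pvalb interneurons, the parvalbumin-making fast-spiking cells. Sst interneurons had 422 CPM (397 to 448) and Pvalb interneurons 16.5 CPM, a ratio of 25.6 (18.9 to 35.4), which was 30.1 in library 1 and 22.1 in library 2. Vip interneurons exceeded Pvalb interneurons by 16.4 times (11.9 to 23.2). Thinned to 1000 UMIs, 63.1% of L2/3 IT neurons (97.5% unthinned, median depth 4767.5 UMIs) and 1.41% of Pvalb interneurons (5.24% unthinned, median depth 3235.5 UMIs) had an Rgs6 UMI.

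D1 SPNs had 123 CPM of Rgs6 (109 to 139) and D2 SPNs 40.6 CPM (29.6 to 54.4), a ratio of 3.03 (2.21 to 4.26). It was 2.74 in library 1, with 104 CPM in D1 and 38.2 CPM in D2 SPNs, and 3.11 in library 2, with 129 CPM in D1 and 41.5 CPM in D2 SPNs. Thinned shares of nuclei with a UMI were 10.2% in D1 SPNs (21.97% unthinned) and 2.04% in D2 SPNs (9.41% unthinned), at median depths of 2983 and 2726 UMIs.

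The D1 clusters were not alike in Rgs6, as a look at each cluster after the values were known showed. Of the 5 clusters named D1 SPN, cluster 6 (46 nuclei, led by Fam19a1 and Sox5) had 309 CPM (241 to 390) and cluster 7 (146 nuclei, led by Stk31 and Pde1a) 257 CPM (211 to 310), while the other 3 had 65.9, 64.3 and 44.0 CPM. The D2 clusters had 43.3 and 39.5 CPM. Cluster 7 was high in both libraries, with 273 CPM on 28 UMIs (library 1) and 252 CPM on 82 UMIs (library 2). Cluster 6 had 305 CPM on 63 UMIs in library 2. Its 350 CPM in library 1 came from 4 nuclei and 8 UMIs, too few to count as a repeat. Cluster 6 also had the highest median depth of the SPN clusters, 4462.5 UMIs, while the others had 2409 to 3232 UMIs. Its score for D1 markers, their mean level relative to the highest cluster, was 0.44, the lowest of the 5 clusters, where the highest was 0.68. Whether depth or the weaker match to D1 markers bears on the Rgs6 level of cluster 6 was not tested. The D1 to D2 ratio fell to 2.24 (1.60 to 3.19) without cluster 7 and to 2.50 (1.80 to 3.54) without cluster 6, and its interval stayed above 1 with any 1 cluster left out.

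Rgs6 was 1 of 3 members, out of 9 with at least 50 UMIs in D1 and D2 SPNs together, whose ratio had an interval that excluded 1, against 12.7% of the 8633 genes with as many. Rgs2 and Rgs8 were the others, both lower in D1 than in D2 SPNs. Rgs2 had 42.8 CPM in D1 SPNs and 60.5 CPM in D2 SPNs, a ratio of 0.71 (0.51 to 0.98), and Rgs8 had 30.02 CPM in D1 SPNs and 45.1 CPM in D2 SPNs, a ratio of 0.66 (0.45 to 0.98). Both ratios were below 1 in each library, at 0.74 and 0.66 in library 1 and 0.69 and 0.67 in library 2. Each call was lost with any of 4 of the 7 clusters left out: leaving out D2 cluster 1 turned the Rgs2 ratio to 1.15 (0.63 to 2.31), leaving out D1 cluster 2 moved it to 0.82 (0.59 to 1.14), and leaving out D2 cluster 0 moved the Rgs8 ratio to 0.74 (0.48 to 1.16). The interval included 1 for the remaining 7 members, Rgs12 on 44 UMIs among them, and their ratios ran from 0.76 for Rgs10 to 0.99 for Rgs7 and Rgs9. For Rgs9 the ratio depended on the clusters too, at 1.21 (1.05 to 1.42) without D2 cluster 1 and 0.90 (0.82 to 0.99) without D1 cluster 5. The widest of these intervals were those of Rgs12 (0.46 to 1.74), Rgs10 (0.47 to 1.24) and Rgs14 (0.62 to 1.44). A 1.5-fold lower level in D1 SPNs lies within all 3, and a 1.5-fold higher one within that of Rgs12 alone.

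**Figure D2:**
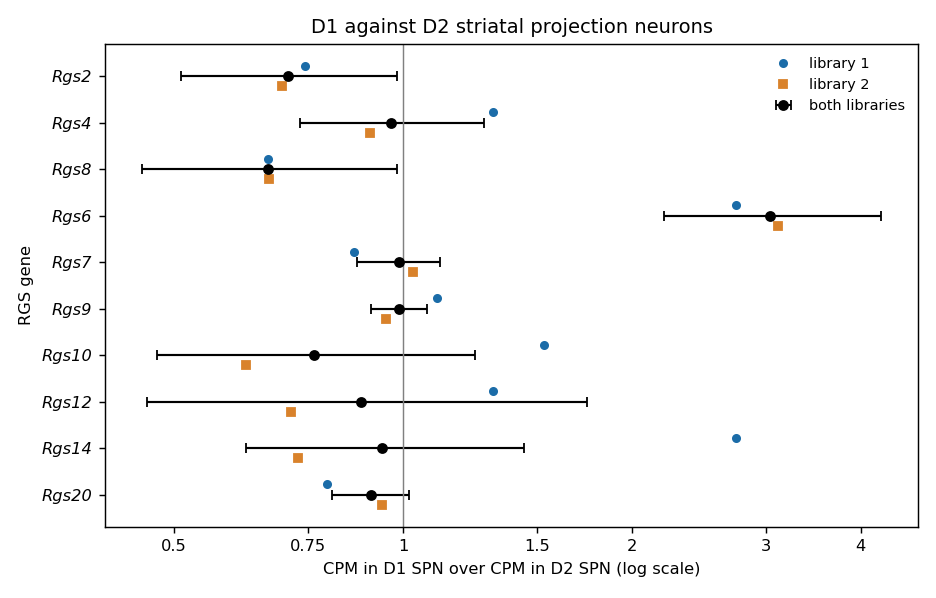
Ratio of the level in D1 SPNs to that in D2 SPNs (log axis) for each RGS gene. Black points are both libraries together with exact 95% intervals of counting error, circles are library 1 and squares library 2. Rgs6 lies at 3.03 and Rgs2 and Rgs8 lie below 1 in both libraries, while Rgs7 and Rgs9 lie at 0.99.

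Rgs7, which controls Go signals of many neurons, was spread across neurons and some glia. Astrocytes had 573 CPM (500 to 654) and excitatory neurons 558 CPM (551 to 566), and this pair did not differ, with a ratio of 1.03 (0.89 to 1.17). Oligodendrocyte precursors (375 CPM), inhibitory neurons (363 CPM) and SPNs (348 CPM) formed a second level with no differences between neighbours. Microglia had 91.5 CPM, neuroblasts or dividing progenitors 82.8 CPM and oligodendrocytes 58.5 CPM. SPNs exceeded microglia by 3.80 times (2.94 to 5.00). When class totals were scaled with TMM factors, a trimmed mean over genes found in every class, excitatory neurons were above astrocytes by 1.22 times (1.07 to 1.40), so the order of the upper pair depended on the scaling.

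Among neurons, Rgs7 was highest in L2/3 IT neurons with 835 CPM (815 to 856), or 884 CPM in library 1 and 791 CPM in library 2. L4/5 IT neurons followed with 700 CPM (680 to 721), a ratio of 1.19 (1.15 to 1.24), and then Lamp5/Ndnf interneurons with 626 CPM. Levels from L6b neurons (472 CPM) down to L6 CT neurons (315 CPM) formed a continuous slope in which no neighbours differed. Claustrum neurons were lowest at 59.1 CPM (44.7 to 76.8), with 45.8 CPM in library 1 and 66.9 CPM in library 2, which is 0.07 times the L2/3 IT level (0.05 to 0.09). Claustrum neurons were also at 0.04 times (0.03 to 0.05) the L2/3 IT level for Rgs6. Thinned to 1000 UMIs, 56.4% of L2/3 IT neurons (95.4% unthinned) and 7.14% of claustrum neurons (19.2% unthinned, median depth 4970 UMIs) had an Rgs7 UMI. A small class of 54 cholinergic neurons, too few to be ranked, had 1250 CPM of Rgs7 and 1059 CPM of Rgs6.

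**Figure D3:**
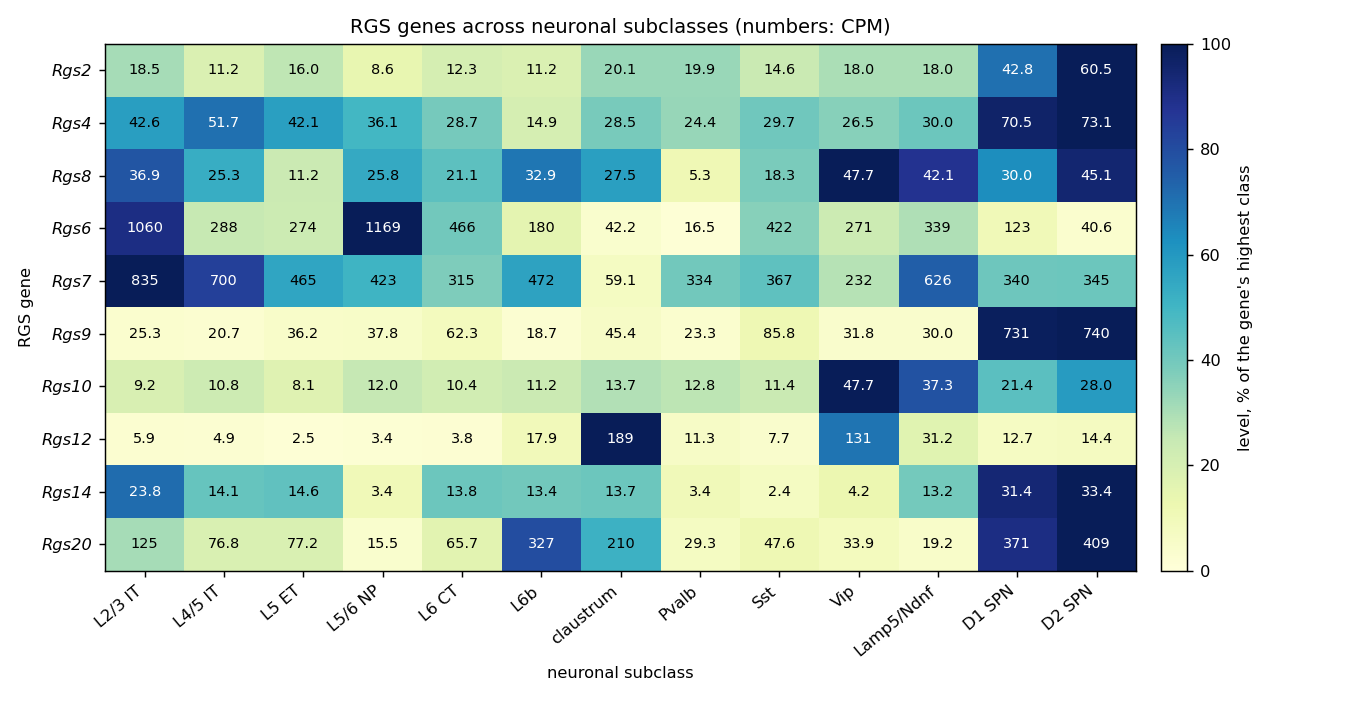
Levels of the RGS genes (rows, in the same order as for the broad classes) in 13 neuronal subclasses (columns). Numbers are CPM over both libraries, and colour is the level as a percentage of the gene's own highest subclass. Rgs9 is high in D1 and D2 SPNs, Rgs6 in L2/3 IT and L5/6 NP neurons, Rgs12 in claustrum and Vip neurons, and claustrum neurons are lowest for Rgs7 at 59.1 CPM.

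Of 5 listed genes for proteins that R7 members bind, 3 had at least 50 UMIs. All 3 had a clear highest broad class, against 28.2% of genes, and it was SPNs. How many of all genes were highest in SPNs was not counted. Gnb5, the beta subunit that R7 proteins need for stability, had 126 CPM in SPNs and 53.0 CPM in inhibitory neurons, the next class, a ratio of 2.38 (2.08 to 2.72). Rgs7bp, the membrane anchor of neuronal R7 complexes, had 571 CPM in SPNs and 347 CPM in excitatory neurons, a ratio of 1.65 (1.57 to 1.72). Gpr158, an orphan receptor that recruits Rgs7 to the membrane, had 814 CPM in SPNs and 466 CPM in excitatory neurons, a ratio of 1.75 (1.68 to 1.82). All 3 were highest in SPNs in both libraries. Over subclasses Rgs7bp was highest in Lamp5/Ndnf interneurons, at 673 CPM (618 to 731), followed by D2 SPNs at 637 CPM (591 to 686), a pair that did not differ, and D1 SPNs at 548 CPM (518 to 580). D2 SPNs exceeded D1 SPNs by 1.60 times for Gnb5 (1.31 to 1.96) and 1.14 times for Gpr158 (1.06 to 1.24). Rgs9bp, the anchor known from the retina, and Gpr179, the other listed gene, were too scarce to rank. In claustrum neurons, where Rgs6 and Rgs7 were low, Gpr158 was at 69.7 CPM and Gnb5 at 22.2 CPM, against 388 and 44.2 CPM in L2/3 IT neurons. Rgs7bp was at 257 CPM in claustrum neurons and 406 CPM in L2/3 IT neurons, and it was lowest in L5/6 NP neurons at 224 CPM.

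Among the R4 genes, Rgs2, a small regulator that prefers Gq and is induced by neuronal activity, was highest in microglia. They had 134 CPM (107 to 164), with 151 CPM in library 1 and 120 CPM in library 2. SPNs followed at 49.97 CPM (43.1 to 57.7), a ratio of 2.67 (2.05 to 3.46), and below them no neighbours differed. The other classes ran from 43.0 CPM in oligodendrocyte precursors to 10.3 CPM in neuroblasts or dividing progenitors. Among neurons, D2 SPNs at 60.5 CPM (46.9 to 76.8) and D1 SPNs at 42.8 CPM (34.5 to 52.3) were above claustrum neurons, the next subclass, at 20.1 CPM. D2 SPNs exceeded D1 SPNs by 1.41 times (1.02 to 1.96). In library 2 alone the ratio was 1.44 (0.99 to 2.08) and in library 1 alone 1.35 (0.62 to 2.83), so the call was not clear in either library by itself. As given above, it was also lost when some single SPN clusters were left out, and it held without others. D1 SPNs exceeded claustrum neurons by 2.13 times (1.29 to 3.70).

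Rgs4, a regulator of Gi and Gq signals that is abundant in cortex, had the flattest distribution over broad classes, with a 3.06-fold range. Microglia had 85.5 CPM (64.8 to 111), neuroblasts or dividing progenitors 67.2 CPM and SPNs 66.8 CPM, and the ratio of the upper pair was 1.27 (0.69 to 2.53). SPNs were the highest class with TMM scaling, at 1.03 times microglia (0.77 to 1.40), and with all genes allowed for clustering, at 1.08 times (0.82 to 1.46) the next class. Only SPNs and oligodendrocytes (49.6 CPM) differed among the 7 neighbouring pairs, by 1.35 times (1.09 to 1.67). Excitatory neurons had 37.4 CPM and inhibitory neurons, the lowest class, 27.9 CPM (24.3 to 31.9). Among neurons D2 SPNs (73.1 CPM) and D1 SPNs (70.5 CPM) did not differ. L4/5 IT neurons came next with 51.7 CPM, above L2/3 IT neurons (42.6 CPM) by 1.21 times (1.04 to 1.42), and L6b neurons were lowest with 14.9 CPM. The level in microglia stood beside the 429 CPM of Slc17a7 there, and whether it was free RNA was not tested.

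Rgs8, known mainly from Purkinje cells of the cerebellum, was sparse. SPNs had 38.7 CPM (32.7 to 45.6), with 45.3 CPM in library 1 against 36.5 CPM in library 2, and excitatory neurons had 22.2 CPM (20.7 to 23.8), a ratio of 1.74 (1.45 to 2.08). In library 2 alone microglia were the next class, on few UMIs, and the ratio of 1.52 (0.77 to 3.43) was not clear. Vip interneurons (47.7 CPM), D2 SPNs (45.1 CPM) and Lamp5/Ndnf interneurons (42.1 CPM) were the highest subclasses and did not differ. Pvalb interneurons were lowest at 5.25 CPM (2.87 to 8.81), and Vip interneurons exceeded them by 9.08 times (4.89 to 17.9). The size of this ratio depended on the library, at 26.6 in library 1 and 4.599 in library 2, on 59 UMIs in all.

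Among the R12 genes, Rgs10, a small member known to restrain the inflammatory response of microglia, marked microglia. They had 419 CPM (371 to 471), and oligodendrocyte precursors followed with 33.5 CPM (18.3 to 56.2), a ratio of 12.5 (7.33 to 23.2). The microglial level was 551 CPM in library 1 and 316 CPM in library 2, a ratio of 1.74 (1.36 to 2.23). The value of the lead over oligodendrocyte precursors differed between libraries. It was 39.7 in library 1 alone, on few precursor UMIs and without an interval, and 7.23 (3.99 to 14.4) in library 2 alone. Whether these leads differed beyond counting error was not tested. In library 1 alone the next class was neuroblasts or dividing progenitors, and microglia exceeded them by 18.5 times (3.27 to 735). Below microglia no neighbours differed until excitatory neurons, which were lowest at 10.1 CPM (9.08 to 11.2). Of the 58 microglia with at least 1000 UMIs, 31.0% had an Rgs10 UMI after thinning (19.5 to 44.5), and over all 884 microglia, with a median depth of 693.5 UMIs, the share was 26.8%. Thinned shares were 2.01% in oligodendrocytes (2.29% unthinned) and 1.09% in excitatory neurons (4.62% unthinned, median depth 4426 UMIs).

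Among neurons Rgs10 was highest in Vip interneurons at 47.7 CPM (34.8 to 63.8), with 38.2 CPM in library 1 and 55.2 CPM in library 2, followed by Lamp5/Ndnf interneurons at 37.3 CPM (25.3 to 52.9). This pair did not differ, with a ratio of 1.28 (0.79 to 2.09). Vip interneurons exceeded Pvalb interneurons, at 12.8 CPM, by 3.74 times (2.34 to 6.02), and in both libraries, by 4.65 times in library 1 and 3.19 times in library 2. No neighbours in the order of the 13 subclasses differed.

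Rgs12, a large scaffold protein with PDZ and Ras-binding domains, was concentrated in claustrum neurons and Vip interneurons. Claustrum neurons had 189 CPM (162 to 219), with 246 CPM in library 1 and 156 CPM in library 2. Vip interneurons had 131 CPM (109 to 157), with 165 CPM in library 1 and 105 CPM in library 2. Claustrum exceeded Vip by 1.44 times (1.14 to 1.82), and Vip exceeded the next subclass, Lamp5/Ndnf interneurons at 31.2 CPM, by 4.20 times (2.74 to 6.69). All other subclasses lay between 17.9 CPM in L6b neurons and 2.53 CPM in L5 ET neurons, so the range over neurons was 74.8-fold.

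The contrast within cell families was wide for Rgs12. Claustrum neurons were 32.2 times above L2/3 IT neurons (23.1 to 45.5), and Vip interneurons were 11.7 times above Pvalb interneurons (7.78 to 18.0). The Vip to Pvalb ratio was 20.03 in library 1 and 7.32 in library 2. Thinned to 1000 UMIs, 16.5% of claustrum neurons (11.4 to 22.7; 58.2% unthinned), 11.1% of Vip interneurons (8.19 to 14.6; 22.6% unthinned, median depth 2080 UMIs) and 0.23% of L4/5 IT neurons (2.21% unthinned, median depth 4538 UMIs) had an Rgs12 UMI. Over the broad classes no neighbours in the order differed. Neuroblasts or dividing progenitors had 62.1 CPM on 12 UMIs and astrocytes 46.9 CPM on 18 UMIs, a ratio of 1.32 (0.58 to 2.91). Inhibitory neurons (29.9 and 26.4 CPM in libraries 1 and 2) were above excitatory neurons (12.0 and 11.9 CPM). These classes were not neighbours. With a minimum of 1000 genes, where no cluster was named microglia or astrocyte, inhibitory neurons were the clear highest class. Their ratio to excitatory neurons was then 2.12 (1.78 to 2.50). No other alternative gave Rgs12 a clear highest broad class.

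Rgs14, which carries an RGS domain and a GoLoco motif and is known from hippocampal area CA2, was sparse in all classes. SPNs had 31.0 CPM (25.6 to 37.2), with 26.7 CPM in library 1 against 32.5 CPM in library 2, and excitatory neurons had 21.0 CPM (19.6 to 22.6), a ratio of 1.47 (1.201 to 1.79). Microglia were also at 21.0 CPM, but on 14 UMIs, with an interval of 11.5 to 35.2 CPM that overlaps the SPN interval. In library 1 alone microglia were the next class and the call was not clear, with a ratio of 1.295 (0.52 to 3.85). Inhibitory neurons were low at 5.03 CPM. D2 SPNs (33.4 CPM) and D1 SPNs (31.4 CPM) did not differ, nor did D1 SPNs and L2/3 IT neurons (23.8 CPM). Seen after the values were known, D1 cluster 7 had 67.7 CPM (45.3 to 97.2) on 29 UMIs, and the other D1 clusters 14.7 to 28.6 CPM. Without cluster 7 the D1 to D2 ratio was 0.68 (0.42 to 1.09). An unnamed excitatory cluster led by Ndst4 and Abi3bp, also picked out after its values were seen, had 44.5 CPM, above every named subclass in value.

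Rgs20, of the RZ subfamily whose proteins act on Gz, was highest in astrocytes. They had 1112 CPM (1009 to 1223), with 1161 CPM in library 1 against 1104 CPM in library 2, and SPNs had 363 CPM (344 to 382), a ratio of 3.07 (2.75 to 3.42). Neuroblasts or dividing progenitors (217 CPM), oligodendrocyte precursors (136 CPM), excitatory neurons (86.7 CPM) and inhibitory neurons (37.8 CPM) each differed from the class before. Microglia (28.5 CPM) and oligodendrocytes (15.95 CPM) were lowest. Thinned to 1000 UMIs, 64.6% of astrocytes (69.2% unthinned, median depth 1190 UMIs), 26.1% of SPNs (53.6% unthinned) and 1.47% of oligodendrocytes (1.47% unthinned) had an Rgs20 UMI. The start of Rgs20 overlaps that of Atp6v1h on the other strand, and whether reads were assigned by strand is not given in the sources used here.

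Among neurons Rgs20 was high in D2 SPNs (409 CPM, 372 to 448) and D1 SPNs (371 CPM, 346 to 397), which did not differ, and in L6b neurons (327 CPM, 297 to 359) of the deepest cortical layer. The D1 to D2 ratio of Rgs20 was 0.82 (0.72 to 0.94) without D1 cluster 5 and 0.86 (0.76 to 0.97) without D1 cluster 3. With any other cluster left out its interval included 1. L6b neurons had 316 CPM in library 1 and 343 CPM in library 2. They exceeded L6 CT neurons, at 65.7 CPM, by 4.98 times (4.29 to 5.78), with 4.99 in library 1 and 5.02 in library 2. Claustrum neurons followed with 210 CPM and L2/3 IT neurons with 125 CPM, each below the subclass before. L5/6 NP neurons, the highest for Rgs6, were the lowest for Rgs20 at 15.5 CPM, and L5/6 NP neurons were at 0.20 times the L5 ET level (0.09 to 0.39).

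**Figure D4:**
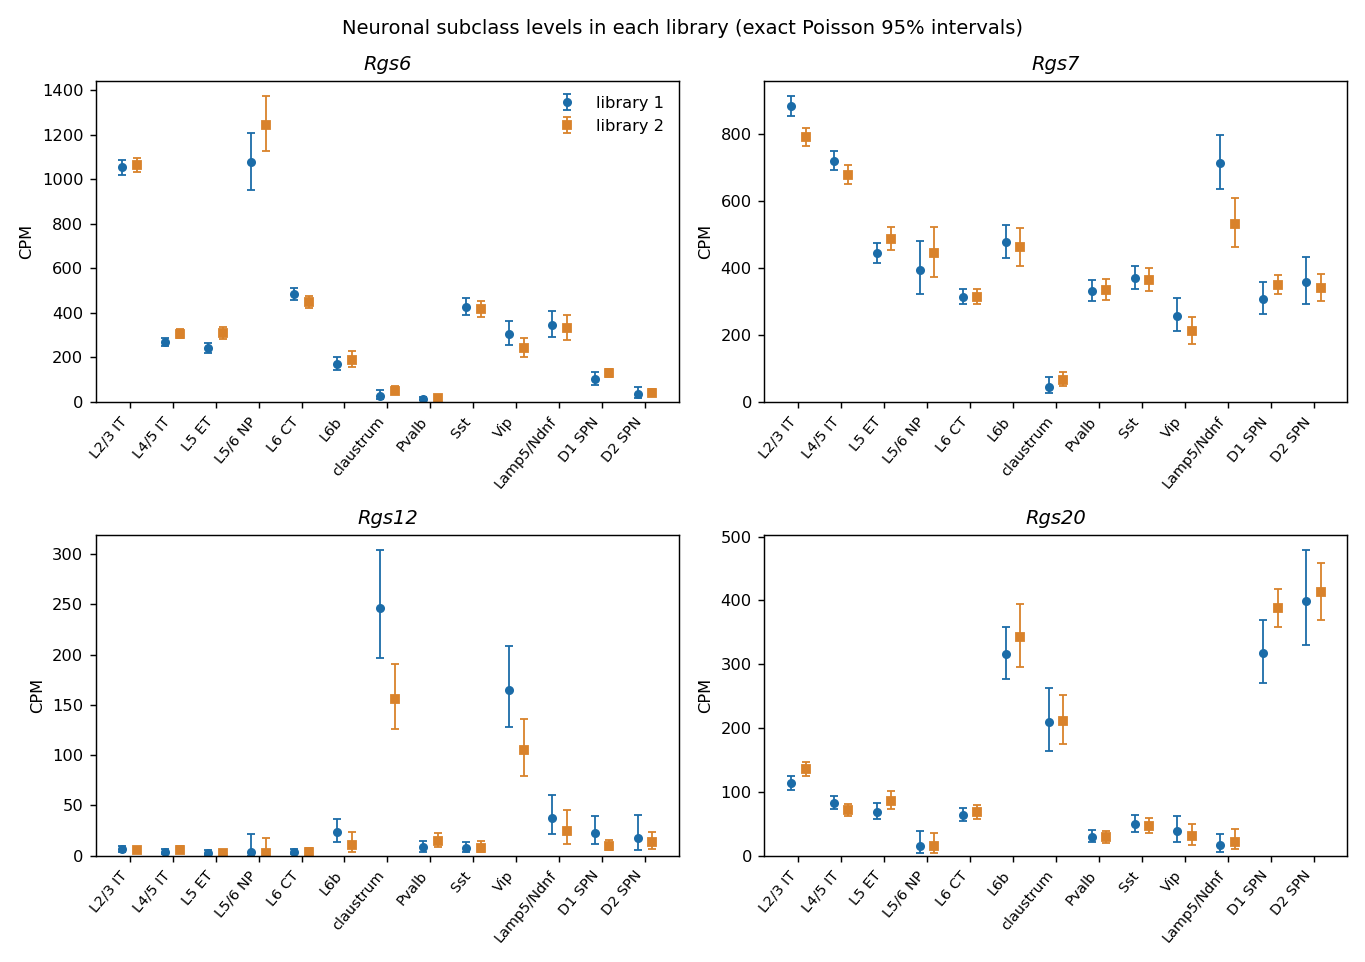
Levels of Rgs6, Rgs7, Rgs12 and Rgs20 in 13 neuronal subclasses for library 1 (circles) and library 2 (squares), in CPM with exact Poisson 95% intervals. The highest subclass of each of the 4 genes is the same in both libraries. Rgs12 in claustrum neurons is at 246 CPM in library 1, above its 156 CPM in library 2.

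Over the 13 neuronal subclasses, 4 of 10 members had a clear highest subclass (Rgs2, Rgs6, Rgs7 and Rgs12), against 14.4% of the 14645 genes tested and 20.3% of those with at least 1000 UMIs. Both clear and the same in both libraries were 4 of 10 members, against 13.7% of genes. Among all genes, 2007 of the 2114 with a clear highest subclass had the same one in both libraries. The highest was at least 2 times the next for 0 members, against 4.77% of genes and 1.85% of those with at least 1000 UMIs, and was the same in both libraries for 6 members, against 34.5% of genes. The median ratio of the highest to the next was 1.61 over broad classes and 1.10 over subclasses. The 5 members highest in D2 SPNs (Rgs2, Rgs4, Rgs9, Rgs14 and Rgs20) all had D1 SPNs next, with ratios from 1.01 to 1.41.

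Between libraries, 12 of 13 differences of 1.5-fold or more, all of Rgs4, Rgs7, Rgs9 or Rgs10, were towards a higher level in library 2. How many of all genes went that way was not counted, so this direction cannot be told from a shift shared by other genes. Of 42 pairs of a member and a broad class with at least 50 UMIs, 13 passed 1.5-fold, and the ratio of library 1 to library 2 ran from 0.33 to 1.74 with a median of 0.83. In excitatory neurons 3 of 10 members passed it (Rgs4, Rgs9 and Rgs10), against 8.29% of genes, all lower in library 1. In inhibitory neurons it was 2 of 9 members (9.95% of genes), in oligodendrocytes 4 of 5 (23.3%), in SPNs 1 of 9 (15.5%) and in microglia 3 of 4 (34.5%). Astrocytes had 0 of 3 (39.1%) and oligodendrocyte precursors 0 of 2 (23.5%), and no member reached 50 UMIs in neuroblasts or dividing progenitors (41.8%).

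Of 70 such pairs in neuronal subclasses, 16 passed 1.5-fold, and 14 of them were lower in library 1. The direction over all genes was not counted here either. It was 3 of 9 members in L2/3 IT (9.67% of genes), 2 of 9 in L4/5 IT (9.5%), 3 of 8 in L6 CT (11.3%), 1 of 7 in L5 ET (11.5%) and 2 of 5 in Pvalb neurons (11.7%). It was 1 of 5 in Sst (12.4%), 1 of 8 in D1 SPN (18.2%), 1 of 6 in D2 SPN (21.5%), 1 of 3 in Vip (17%) and 1 of 3 in claustrum neurons (14.5%). L5/6 NP (15.6%), Lamp5/Ndnf (16%) and L6b neurons (14.1%) had none of their 2, 2 and 3 members.

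Rgs4 was lower in library 1 than in library 2 in all 8 broad classes and all 13 subclasses. In excitatory neurons it was at 28.1 CPM (library 1) against 45.9 CPM (library 2), a ratio of 0.61 (0.55 to 0.68), and in oligodendrocytes at 25.2 CPM (library 1) against 76.2 CPM (library 2), a ratio of 0.33 (0.22 to 0.49). The free RNA marker Slc17a7 moved the same way in 7 of 8 broad classes. It was at 222 CPM (library 1) against 507 CPM (library 2) in oligodendrocytes, and at 299 CPM (library 1) against 529 CPM (library 2) in microglia. In excitatory neurons, which make it, it was at 316 CPM (library 1) against 421 CPM (library 2). Astrocytes did not go this way, with 393 CPM (library 1) against 387 CPM (library 2). The part of free RNA in the Rgs4 difference was not tested.

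Rgs9 was also lower in library 1 in excitatory neurons, inhibitory neurons and oligodendrocytes, while in SPNs the ratio of 1.02 had an interval that included 1 (0.93 to 1.11). Excitatory neurons had 25.1 CPM in library 1 and 44.4 CPM in library 2, a ratio of 0.56 (0.50 to 0.63), and oligodendrocytes had 19.7 CPM in library 1 and 56.2 CPM in library 2, a ratio of 0.35 (0.22 to 0.54). SPNs made up 4.34% of library 1 and 9.31% of library 2, and over all nuclei Rgs9 was at 58.3 CPM (library 1) against 112 CPM (library 2). The part of free SPN RNA in the difference was not tested. Rgs10 in microglia and Rgs12 in claustrum and Vip neurons went the other way, with ratios of 1.74, 1.58 (1.17 to 2.14) and 1.57 (1.09 to 2.29).

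**Figure D5:**
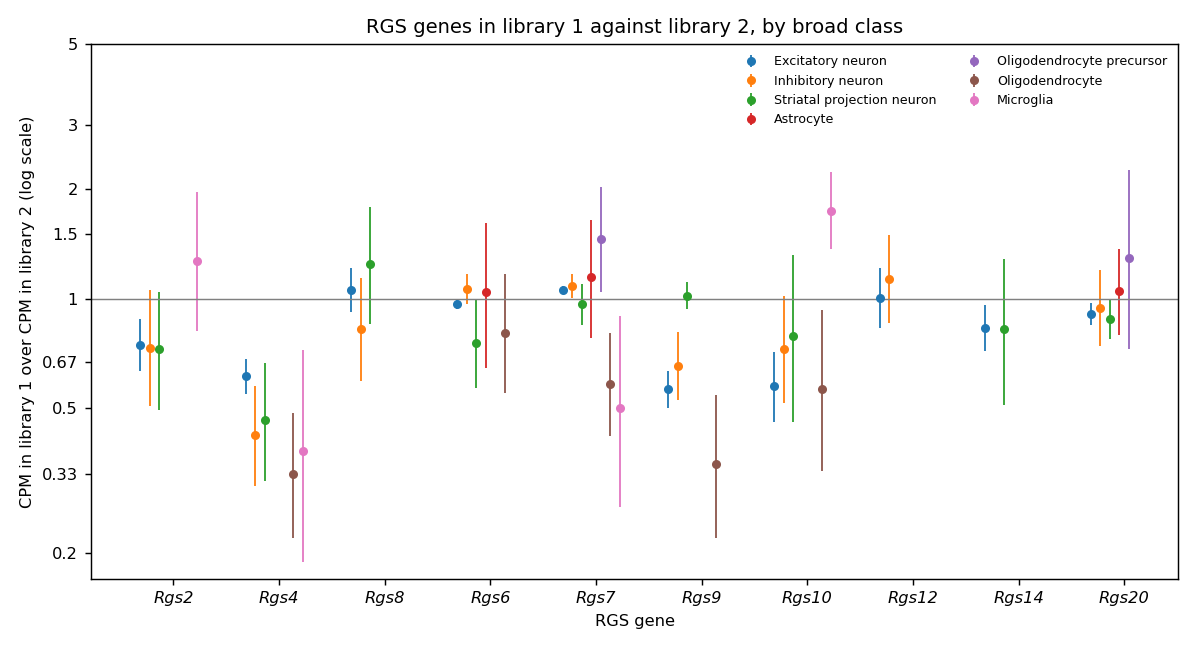
Ratio of the level in library 1 to that in library 2 (log axis) for each RGS gene and broad class with at least 50 UMIs, with exact 95% intervals of counting error. Every Rgs4 point lies below 1, Rgs9 lies at 1.02 in striatal projection neurons and below 1 in the other plotted classes, and Rgs10 in microglia lies at 1.74.

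The genes most like each member across 18 cell types, by Pearson correlation of log2(CPM + 10), are given as a description, since types share libraries and free RNA. For Rgs9 they were Adcy5 (0.89), Rarb (0.89) and Cx3cl1 (0.88), and for Rgs10 Apbb1ip (0.95), P2ry12 (0.94) and Serinc3 (0.93). For Rgs6 they were Ildr2 (0.81), Ccdc39 (0.76) and Mcc (0.71), and for Rgs7 Shc3 (0.83), Pcgf5 (0.82) and Pank1 (0.79). For Rgs20 they were Sdc2 (0.80), Dcun1d4 (0.79) and Gm32618 (0.78), and for Rgs12 Pdrg1 (0.78), St6galnac6 (0.71) and Psme3 (0.68). For Rgs2 they were Fam102b (0.91), Cebpz (0.88) and Zfhx3 (0.87), for Rgs4 Smad4 (0.90), Kcnj4 (0.86) and Sun2 (0.82), for Rgs8 Cfap36 (0.82), Cacnb2 (0.81) and Lrrc3b (0.79), and for Rgs14 Spata2l (0.92), Ptk2b (0.90) and Zfp407 (0.87). Within single libraries some of these pairs were far less alike: in library 1 the correlation was -0.29 for Psme3 and 0.10 for St6galnac6 with Rgs12 and 0.07 for Sun2 with Rgs4, while over all 30 pairs it ran up to 0.89 (Fam102b with Rgs2) in library 1 and from 0.59 to 0.92 in library 2. A member's own pattern correlated between the libraries at 0.97 or more for Rgs6, Rgs7 and Rgs20, but at 0.43 for Rgs4 and 0.56 for Rgs14. Between members the highest correlation was 0.79, for Rgs2 with Rgs10, and the lowest was -0.52, for Rgs2 with Rgs6.

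The wider pathway was read from lists of genes, counting genes with at least 50 UMIs. Of 11 other Rgs genes, 8 had enough UMIs and 3 had a clear highest broad class, against 28.2% of genes. Rgs3 was highest in neuroblasts or dividing progenitors at 109 CPM, 1.93 times oligodendrocytes (1.16 to 3.05), and Rgs5 had a higher ratio of 2.92 that was not clear. Of 13 G alpha genes, 7 were clear, against the same 28.2% of genes. Gna15, a Gq-type subunit of blood cells, was at 150 CPM in microglia and 14.5 times (3.91 to 121) the next class. Gnal, the Golf subunit that couples D1 receptors to adenylyl cyclase, was at 593 CPM in SPNs and 4.90 times (4.54 to 5.30) inhibitory neurons.

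Of 13 G beta and gamma genes, 11 had enough UMIs and 2 were clear, against 28.2% of genes. Gng7, the gamma subunit that pairs with Golf, was at 233 CPM in SPNs and 3.06 times (2.63 to 3.57) oligodendrocytes, and Gng10 was highest in microglia with a ratio of 2.42 (0.89 to 8.21) that was not clear. Of the other modulators, 3 of 9 were clear, near the share of 28.2% over all genes. Ric8b, a chaperone of Golf, was at 159 CPM in SPNs and 3.07 times (1.66 to 6.44) the next class, and Grk2, a kinase that desensitises receptors, was at 66.0 CPM in microglia and 2.11 times (1.10 to 4.39) astrocytes. All 3 dopamine receptors with enough UMIs were clear in SPNs: Drd1 at 142 CPM and 8.03 times the next class, Drd2 at 87.6 CPM and 4.58 times, and Drd3 at 32.3 CPM and 6.76 times. Drd1 and Drd2 also served as markers for naming SPNs, so their levels there are not findings.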

How the data were processed

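Single nuclei of prefrontal cortex were isolated on an iodixanol gradient and put through 10x 3′ chemistry, per the labels' protocols. The authors deposited raw UMI counts for each barcode, made with Cell Ranger 1.3.0 on mm10 per the submitters' processing notes, which also name Seurat 3.1.4, while the file header names software version 3.1.0. The labels give 1 library per group, so METH and Control would have had no replicate, and no label ties a barcode number to a group. The matrix was treated as 1 pooled sample. Of 20766 barcodes (9890 in library 1 and 10876 in library 2), 154 sequences occur in both libraries.

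A minimum of 500 genes per barcode left 19551, from which 1549 doublets called per library by Scrublet in Scanpy 1.11.5 were taken out (10.0% of library 1 and 6.19% of library 2). Leiden clusters at resolution 1 were made from 3000 variable genes, 50 principal components and 20 neighbours, without Rgs genes, the pathway lists, haemoglobin genes or Ttr. Clusters were named after the best-scoring list of markers (the mean level relative to the highest cluster) where 3 markers were detected and no other list scored within 1.5 times of it. Unnamed clusters of at least 60 nuclei were clustered again at resolution 0.5, and neurons were split into subclasses with 2000 genes, 30 components and resolution 0.8. The minimum score of 0.3, the dropping of the markers Bmpr1b and Sox6, the second clustering and the rule for ties were set after the data were seen. Unnamed nuclei (1475) entered no class. Neuron clusters that matched no subclass counted in their broad class but in none of the 13 subclasses. The largest were excitatory clusters of 677, 661, 598 and 412 nuclei, and 1 was an SPN cluster of 175 nuclei.

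UMIs were summed per class (Python 3.11.15, pandas 2.3.3, SciPy 1.17.1), and shares have Clopper-Pearson 95% intervals. Genes with fewer than 50 UMIs over the classes were not ranked. Gene positions and overlaps were read from a GENCODE annotation of GRCm38, and upstream sequences from RefSeq. The text names all 10 members, the 2 genes of each list with the highest ratio of highest to next class, the R7 partners, Drd1, Drd2 and the 3 genes most like each member. Members, lists and tests were chosen with earlier results of these data known. Alternatives were a minimum of 1000 genes, doublets kept, 0.5 and 2 times the resolution, means over nuclei, each library alone, subtraction of the lowest class, TMM scaling, and, added after seeing the data, all genes allowed for clustering and each D1 or D2 SPN cluster left out in turn.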

Additional observations from a re-analysis of the deposited data

How the results depend on the processing

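No clear highest-to-next ratio turned below 1 under any alternative in which it could be computed. Of the ratios that were not clear, 15 did. Over broad classes these were Rgs12 (0.38 with all genes allowed for clustering, 0.96 in library 2 alone) and Rgs7 (0.82 with TMM scaling, 0.99 as a mean over nuclei). Over subclasses they were Rgs4 (0.76 in library 1 alone, 0.97 and 0.95 at 0.5 and 2 times the resolution, 0.96 with all genes allowed), Rgs9 (0.90 in library 1 alone, 0.99 and 0.97 at 0.5 and 2 times the resolution, 0.96 with a minimum of 1000 genes), Rgs14 (0.37 in library 1 alone), Rgs8 (0.87 in library 2 alone) and Rgs10 (0.86 with a minimum of 1000 genes). The number of members with a clear highest broad class stayed between 5 and 8, and that of members with the same highest class in both libraries between 8 and 9. The classes behind these counts changed. With a minimum of 1000 genes, Rgs2 and Rgs20 were clear in SPNs, Rgs7 in excitatory neurons and Rgs12 in inhibitory neurons, none of them the class reported above. The number with a clear highest subclass was 2 in library 1 alone, where Rgs2 and Rgs6 were no longer clear, 3 in library 2 alone, where Rgs2 was not, and 4 in the other alternatives that gave one. With doublets kept, the clear subclass was another one for Rgs6 (L6 CT), Rgs7 (Lamp5/Ndnf) and Rgs12 (Vip). TMM scaling was run for broad classes only, and means over nuclei and subtracted levels have no counting interval and gave no count of clear members. Of 170 ratios of a member's highest to next class that could be recomputed, 151 stayed within the interval of the reported value and 19 moved outside it. With doublets kept, Rgs9 in SPNs over astrocytes was 6.84, and with the lowest class subtracted the Rgs9 ratio was 21.7. The call for Rgs14 in SPNs was not clear with doublets kept, at 0.5 or 2 times the resolution, in library 1 alone, or with all genes allowed for clustering, where microglia were the next class. With a minimum of 1000 genes per nucleus no cluster was named microglia or astrocyte, so ratios that rest on these classes have no value there, and with doublets kept 7 subclasses remained. At 0.5 times the resolution no cluster was named astrocyte. With 1 cluster left out, the D1 to D2 SPN ratio changed direction, with a call before or after, for Rgs2 (1.15) and Rgs9 (1.21). Both changes came without cluster 1. Of 70 such ratios, 7 further ones lost a call and 4 gained one. Some ratios with no call before or after also crossed 1, such as Rgs4 (1.63, 0.94 to 3.05) and Rgs12 (2.06, 0.52 to 17.8) without cluster 1. The cause was not tested.

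No paired analysis was possible because the labels give 1 library per group and no replicate numbers, and the libraries are not tied to the groups. Depth limits the glia and progenitors: 826 of 884 microglia, 2305 of 3052 oligodendrocytes and 122 of 179 neuroblasts or dividing progenitors had fewer than 1000 UMIs. Intervals cover counting error and not the spread between mice, which pooled libraries do not show.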
